A study of Mus musculus with 960 samples.

Results

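The Rab genes encode the largest family of small GTPases in the cell, and 56 of the 22342 protein-coding genes of GENCODE M1 belong to it by the rule used here: a symbol of Rab, digits and at most 1 letter, on chromosomes 1 to 19 or X of the mouse build mm9. A window is a 500 bp stretch around a summit of transposase accessibility, and of the 50000 windows in the deposited list 76 lay at the start sites of Rab genes (1 kb or less away) and 45 elsewhere in these genes. A Rab protein works as a switch: exchange factors load it with GTP, GTPase-activating proteins of the TBC kind return it to the GDP form, and in the GTP form it recruits effectors that move, tether or fuse vesicles. Each Rab sits on its own set of membranes, so the family maps the traffic of a cell from the endoplasmic reticulum to the plasma membrane and back to the lysosome. In mammary epithelium these routes serve secretion from the apical surface, the upkeep of polarity and the recycling of receptors and integrins.

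The cells came from a breast tumour of an MMTV-PyMT mouse, in which the mammary tumour virus promoter drives the polyoma middle T oncogene in mammary epithelium, and per the study's methods mice were killed at 3 months of age. Fixed cells were stained, their open DNA was tagged with Tn5 transposase, and single cells were sorted 1 to a well. The wells of 8 plates, 96 wells each, carried stains for EpCAM, which marks epithelial cells, and for HIF1a, the oxygen-regulated part of hypoxia-inducible factor, and those of 2 further plates carried stains for EpCAM and for the leukocyte antigen CD45. The paper describes the cells of its HIF1a experiment as EpCAM-positive, although its methods state that sorting did not select by stain. The list need not stand for all cells of the tumour. No animal is named in the labels, and both sets of wells share the tumour model and the absence of any treatment. The authors called the windows on pooled cells, and the sources leave unstated if the plates with the CD45 stain were part of that pool. The paper does report more cells for its HIF1a experiment than the 8 plates labelled for it have wells.

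The list is therefore 1 sample with no replicates, no scores and no read counts, so that no test was run and every share below is a description. Absence from the list means only that a site was not among the 50000 windows kept, and in a pool, opening in few cells and weak opening in many cells cannot be told apart. The labelled tissue was checked against markers, a check that is not independent of the EpCAM stain if cells were taken by it. All 5 epithelial markers (Epcam, Krt8, Krt18, Cdh1 and Elf5) had a window 1 kb or less from a start, against 0 of 5 blood-derived, 0 of 3 fibroblast, 0 of 3 endothelial and 0 of 3 neuronal markers, and the gene of CD45, Ptprc, had no window at all. Elsewhere in the gene, windows were present at 1 of the 5 blood-derived, 0 of the 3 fibroblast, 2 of the 3 endothelial and 2 of the 3 neuronal markers.

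A gene is called open here where a window lies within 1 kb of 1 of its start sites, the starts of its coding transcripts. Most Rab genes were open in the pooled tumour cells. Such a start window was found in 46 of the 56 Rab genes (82.1%), against 52.2% of all protein-coding genes (11664 of 22342). In a stricter list, made of windows from called peaks that kept 2 or more, the counts were 18 Rab genes (32.1%), against 21.6% of all genes. This list selects called peaks with several summits, and without scores it cannot be read as the stronger calls. With windows in the body of the gene added, 49 Rab genes (87.5%) had at least 1 window, against 58.5% of all genes. Rab genes with 2 or more start windows numbered 22 (39.3%), against 25.7% of all genes. At the upper end the family and the genome were closer, since 6 Rab genes (10.7%) and 8.82% of all genes held 5 or more windows.

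**Figure D1:**
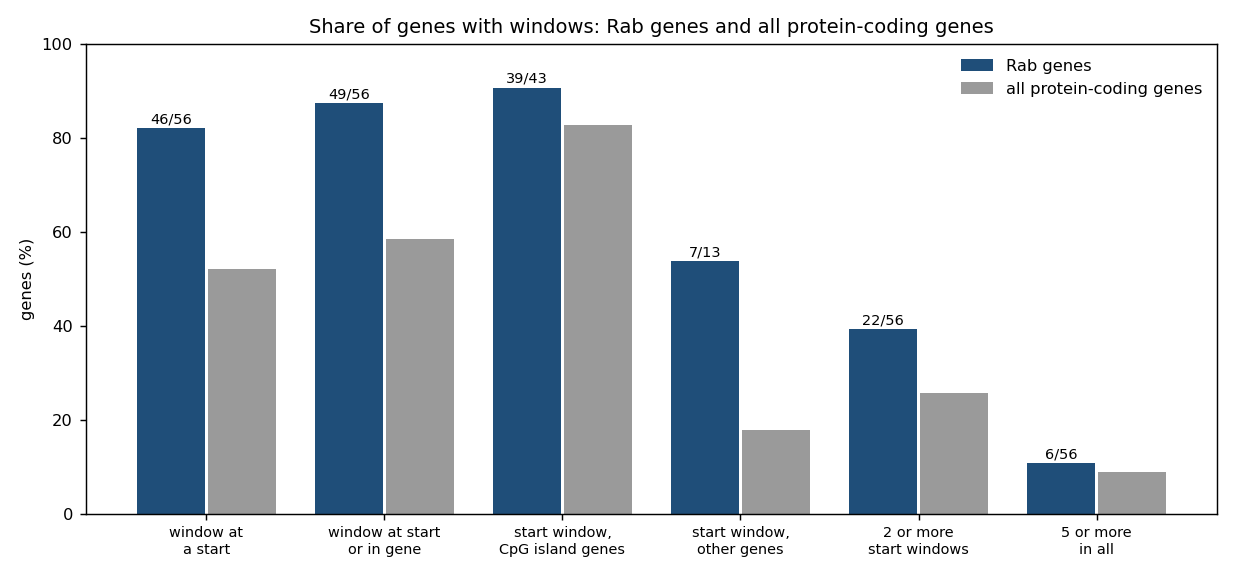
Share of genes (%, vertical axis) with windows, for the Rab genes (blue, left in each pair, with the count of genes above the bar) and all protein-coding genes (grey). The gap is widest for genes without a CpG island start, 53.8% of Rab genes and 17.9% of all such genes, and narrow for genes with 5 or more windows, 10.7% and 8.82%. In windows of called peaks that kept 2 or more, which are not plotted, the shares for genes without a CpG island start are 7.69% and 6.81%. In the same windows the shares over all genes are 32.1% for Rab genes and 21.6% for all protein-coding genes.

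CpG content at the start differed between the family and the genome and moved with these shares. A CpG island start was defined as 500 bp centred on a start site with a GC content of at least 50% and an observed/expected CpG ratio of at least 0.6. Of the Rab genes, 43 (76.8%) had one, against 52.9% of all genes. Within that class, 39 of 43 Rab genes (90.7%) had a start window, against 82.7% of all genes with a CpG island start. Among genes with no such start, 7 of 13 Rab genes (53.8%) had a window, against 17.9% of all genes in that class. In the same stricter list 1 of the 13 Rab genes without an island (Rab30, 7.69%) had a start window, against 6.81% of all such genes. A count of 1 is too small to size the gap there. With an island the count was 17 of 43 (39.5%), against 34.8%.

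The 7 Rab genes that were open without a CpG island were Rab17, Rab19, Rab25, Rab26, Rab27b, Rab30 and Rab38. Several of them are known for restricted expression: Rab17 and Rab25 in epithelia, Rab27b and Rab26 in secretory cells, and Rab38 in pigment cells and lung epithelium. Their nearest summits lay 0.018 to 0.353 kb from a start. For Rab26, Rab30 and Rab38 the CpG ratio at the outermost start was 0.589, 0.575 and 0.573, just below the 0.6 required. Start windows of Rab26, Rab27b and Rab38 held 28, 32 and 24 CpG, and those of Rab30 held 13 to 27. Those of Rab17, Rab19 and Rab25 held 10 to 14. The 6 Rab genes with neither an island nor a start window were Rab3b, Rab9b, Rab33a, Rab37, Rab39b and Rab44. Of these, Rab3b, Rab33a and Rab37 also came near the cut-off, with ratios of 0.551, 0.558 and 0.559. Rab39b had a ratio of 0.748 and missed the definition only by its GC content of 47.4%. The 4 with an island and no start window were Rab2b, Rab3c, Rab33b and Rab39.

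Rab25, a relative of Rab11 that directs recycling in epithelial cells, shows what an open start of low CpG content looks like in sequence. Its start window, summit 41 bp upstream of a start, held 13 CpG. The 200 bases before its outermost start (chr3:88352223-88352422, mm9, minus strand) are printed with 2 short motifs in capitals, a Grainyhead-like (GRHL) motif AACNGGTT read on the other strand and a cyclic AMP response element (CRE) TGACGTCA.
Rab25: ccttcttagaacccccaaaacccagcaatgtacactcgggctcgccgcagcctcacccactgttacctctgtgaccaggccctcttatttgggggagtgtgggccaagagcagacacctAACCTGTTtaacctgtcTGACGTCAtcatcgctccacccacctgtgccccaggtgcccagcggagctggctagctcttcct
Start windows of all protein-coding genes held the GRHL letters in 3.27% of cases and the CRE letters in 2.78%. Among the 76 start windows of Rab genes, 3 held the GRHL letters and 2 the CRE letters, and the windows with GRHL letters belonged to Rab3d, Rab17 and Rab25. A match of letters describes the sequence and does not show that a factor binds there.

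Where a Rab start was open, the summit lay close to it. The nearest summit was a median 83 bp from a start in the 46 Rab genes with a start window, against 71 bp in all genes with one. It lay within 200 bp in 42 Rab genes (91.3%), against 87.6% of all such genes. The nearest summit lay downstream of the start in 12 Rab genes (26.1%), against 37.1% of all such genes. The farthest nearest summit among the open Rab genes was that of Rab27b at 0.353 kb, and the closest among the 10 others was that of Rab33a at 5.71 kb, so no Rab gene fell between these distances.

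**Figure D2:**
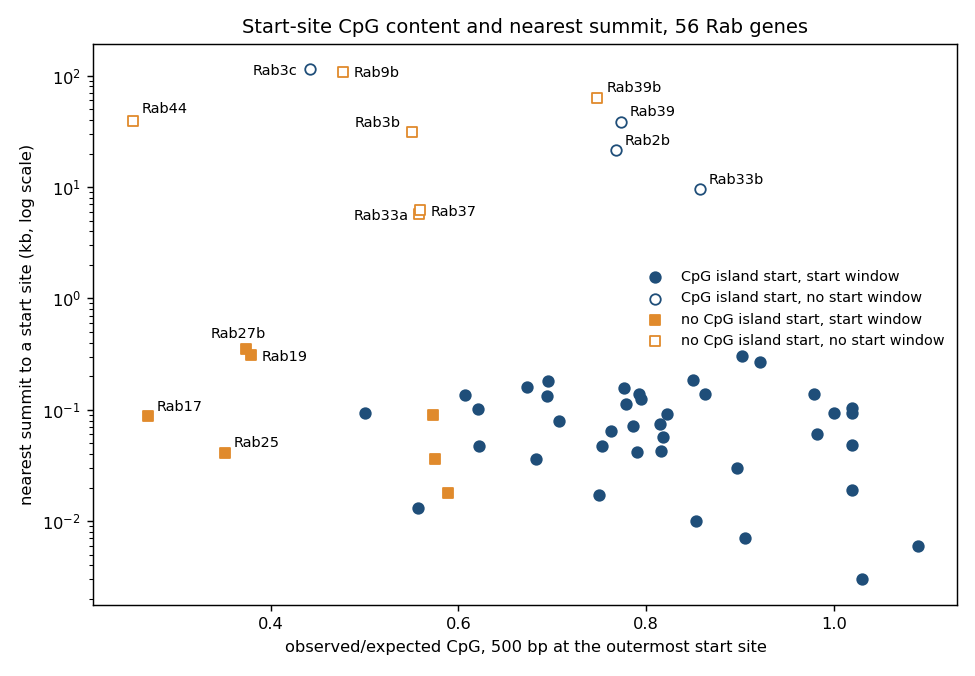
Observed/expected CpG ratio in 500 bp at the outermost start site (horizontal axis) against the distance from any start site to the nearest summit (kb, log scale) for the 56 Rab genes. Circles have a CpG island at any start, squares none, and filled symbols a start window. Filled symbols lie at or below 0.353 kb and open symbols at or above 5.71 kb, and the open circles are Rab2b, Rab3c, Rab33b and Rab39.

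By role, start windows covered some routes of traffic completely. All 9 Rab genes of uptake and the early endosome and all 12 of recycling and apical-basal polarity had a start window. In the late endosome and lysosome group 5 of 6 did, and in the group of ciliary and other Rab genes 5 of 6. Of the Rab genes of the endoplasmic reticulum, Golgi and lipid droplet, 10 of 15 had a start window, and of those of regulated secretion 5 of 8. The share over all protein-coding genes was 52.2%, and with 6 to 15 genes a group these shares were not compared by a test. The groups also differed in CpG island starts. These were present in 9 of 9 uptake, 10 of 12 recycling, 4 of 6 late endosome and 5 of 6 ciliary and other genes. The Golgi group had 11 of 15 and regulated secretion 4 of 8. Over all genes with such a start the share was 82.7%, and the part of CpG content in the role shares was not tested.

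**Figure D3:**
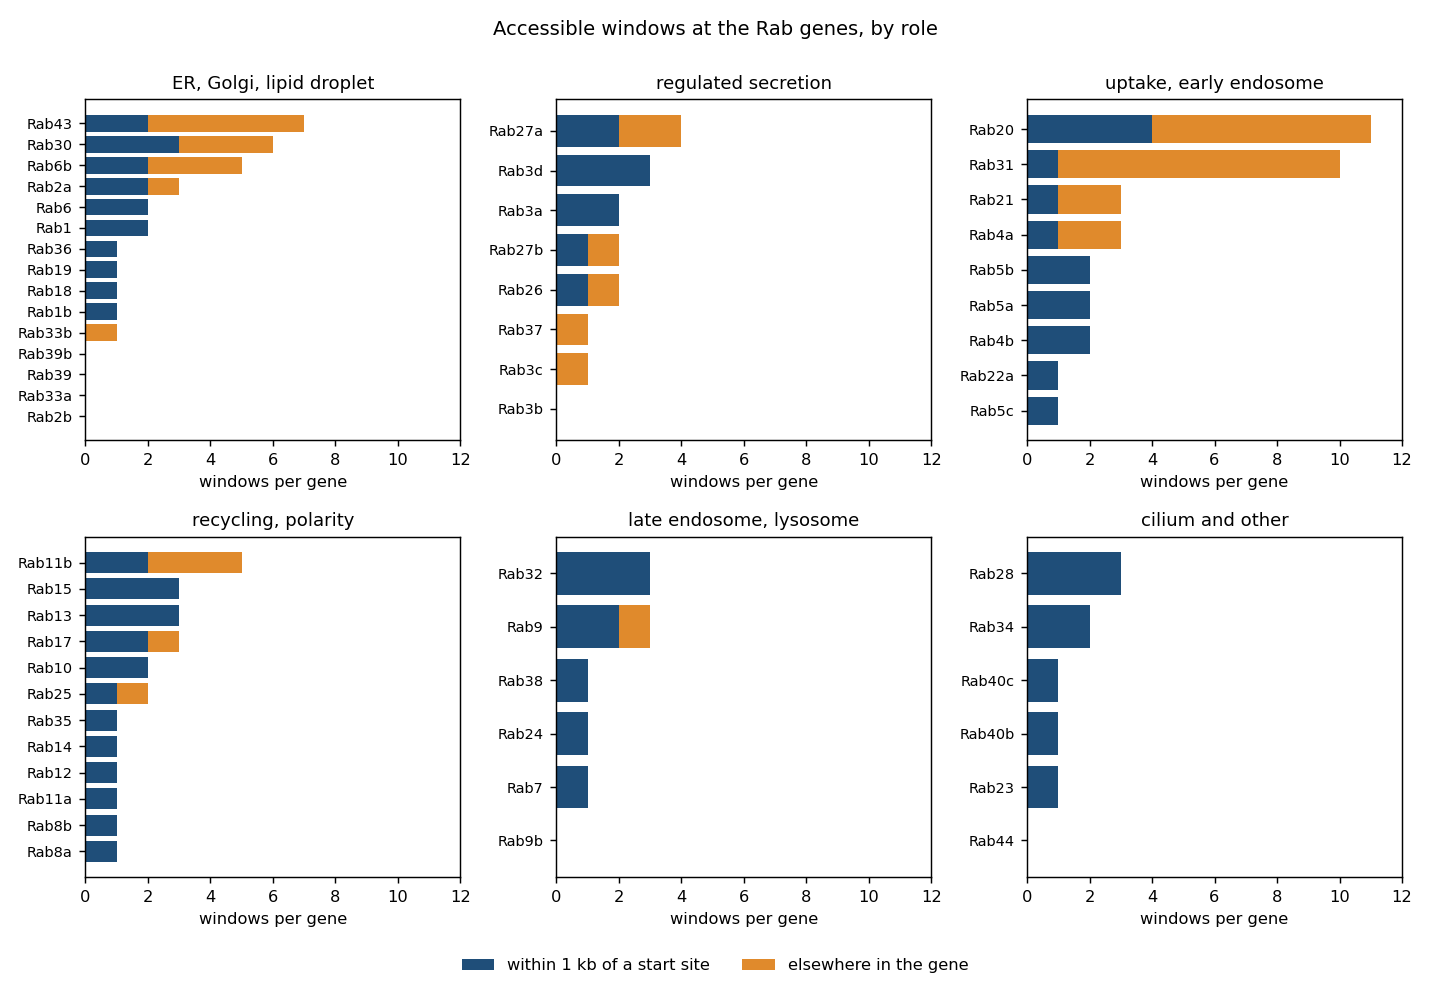
Number of windows per Rab gene (horizontal axis), split by role, with start windows in blue and windows elsewhere in the gene in orange. Rab20 (11 windows) and Rab31 (10 windows) stand above the other 54 Rab genes, which have at most 7, and all genes in the panels for uptake and for recycling have a blue bar.

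The uptake and early endosome group held 35 windows in 9 genes, of which 21 belonged to Rab20 and Rab31. Rab5a, Rab5b and Rab5c, the GTPases that define the early endosome, had 2, 2 and 1 windows, all at their starts. Rab4a and Rab4b, which return cargo from that compartment to the surface, had 3 and 2 windows. Rab21, which carries integrins, had 3, and Rab22a, which acts between early and recycling endosomes, had 1.

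Rab20 held more windows than any other Rab gene. It acts on macropinosomes and phagosomes and is known in cultured cells as a gene induced by low oxygen. The gene spans 25.2 kb (chr8:11453392-11478638, minus strand) and had 4 start windows and 7 windows elsewhere, all in its intron, from 6 called peaks. The start summits lay 0.726 kb upstream and 0.071, 0.297 and 0.638 kb downstream of its start site. The intron summits lay at 1.65, 1.86, 5.27, 15.8, 16.5, 19.8 and 20.5 kb from the start. They thus fell into a group beside the start, a lone window at 5.27 kb and a group in the far part of the intron. The noncoding gene E230013L22Rik also starts within 1 kb of 5 of the 11 windows, so these cannot be assigned to Rab20 alone. Starts of other genes not annotated as coding lay equally near start windows of Rab8a, Rab11b, Rab22a, Rab30 and Rab40c.

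Because the study stained HIF1a, the Rab20 start is printed with the HIF core in capitals, the letters ACGTG or GCGTG on either strand. The stretches are the longest exon-free parts of the start windows with summits 0.071 and 0.638 kb downstream, on the minus strand of mm9: chr8:11478684-11478816 before the start and chr8:11477750-11477928 in the intron.
Rab20 before the start: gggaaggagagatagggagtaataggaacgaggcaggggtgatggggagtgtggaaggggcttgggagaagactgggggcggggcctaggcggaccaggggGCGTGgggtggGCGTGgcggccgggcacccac
Rab20 in the intron: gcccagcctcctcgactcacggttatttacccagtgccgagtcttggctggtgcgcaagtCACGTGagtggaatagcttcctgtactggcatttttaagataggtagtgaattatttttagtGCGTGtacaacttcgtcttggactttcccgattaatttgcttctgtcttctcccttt
The capitals of the intron stretch include CACGTG, an E-box that contains the HIF core on both strands. The HIF core was present in 3 of the 4 Rab20 start windows and the E-box in 2 of the 4. These letters are common: the HIF core was in 76.1% of all start windows and the E-box in 12.7%. Across the family the shares were 76.3% and 11.8% of the 76 start windows, close to those of all start windows, and in the central 200 bp 42.1% and 3.95%, against 49.6% and 6.23% of all start windows.

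An intron window of Rab31, with its summit 34.8 kb from the nearest start of the gene, is printed because it is the only 1 of the 9 Rab31 intron windows with GRHL or AP-1 letters. The sequence is the central 300 bases of the window on the plus strand of mm9, chr17:66087015-66087314, with capitals for GRHL letters (AACNGGTT) and AP-1 letters (TGANTCA) on either strand.
Rab31 intron: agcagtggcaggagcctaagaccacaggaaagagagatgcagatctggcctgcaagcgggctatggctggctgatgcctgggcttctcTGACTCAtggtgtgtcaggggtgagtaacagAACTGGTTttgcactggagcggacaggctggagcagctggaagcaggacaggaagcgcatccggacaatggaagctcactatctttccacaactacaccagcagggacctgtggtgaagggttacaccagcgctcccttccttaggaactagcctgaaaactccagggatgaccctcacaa
Of the 45 Rab windows away from starts, 8.89% held GRHL letters, 35.6% those of TEAD (GGAATG), 11.1% those of AP-1 and 8.89% those of GATA factors (AGATAA), against 5.86%, 28.4%, 17.6% and 16.2% of all windows in genes away from starts. TEAD letters were found in 5 of the 7 Rab20 intron windows and 5 of the 9 Rab31 intron windows, and neighbouring windows that overlap share sequence.

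Rab31, a close relative of Rab22a that carries cargo between the trans-Golgi network and endosomes, had 10 windows. The gene (chr17:66001066-66122092, minus strand) is much longer than Rab20, and its only start window had a summit 43 bp downstream of a start with 54 CpG in 500 bp. The other 9 windows lay in introns, with summits at 3.87, 11.7, 12.4, 12.6, 34.8, 48.2, 59.6, 63.8 and 70.3 kb from the nearest start. None lay farther into the gene than 70.3 kb. Per length Rab31 held 7.44 windows elsewhere per 100 kb and Rab20 held 27.7.

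**Figure D4:**
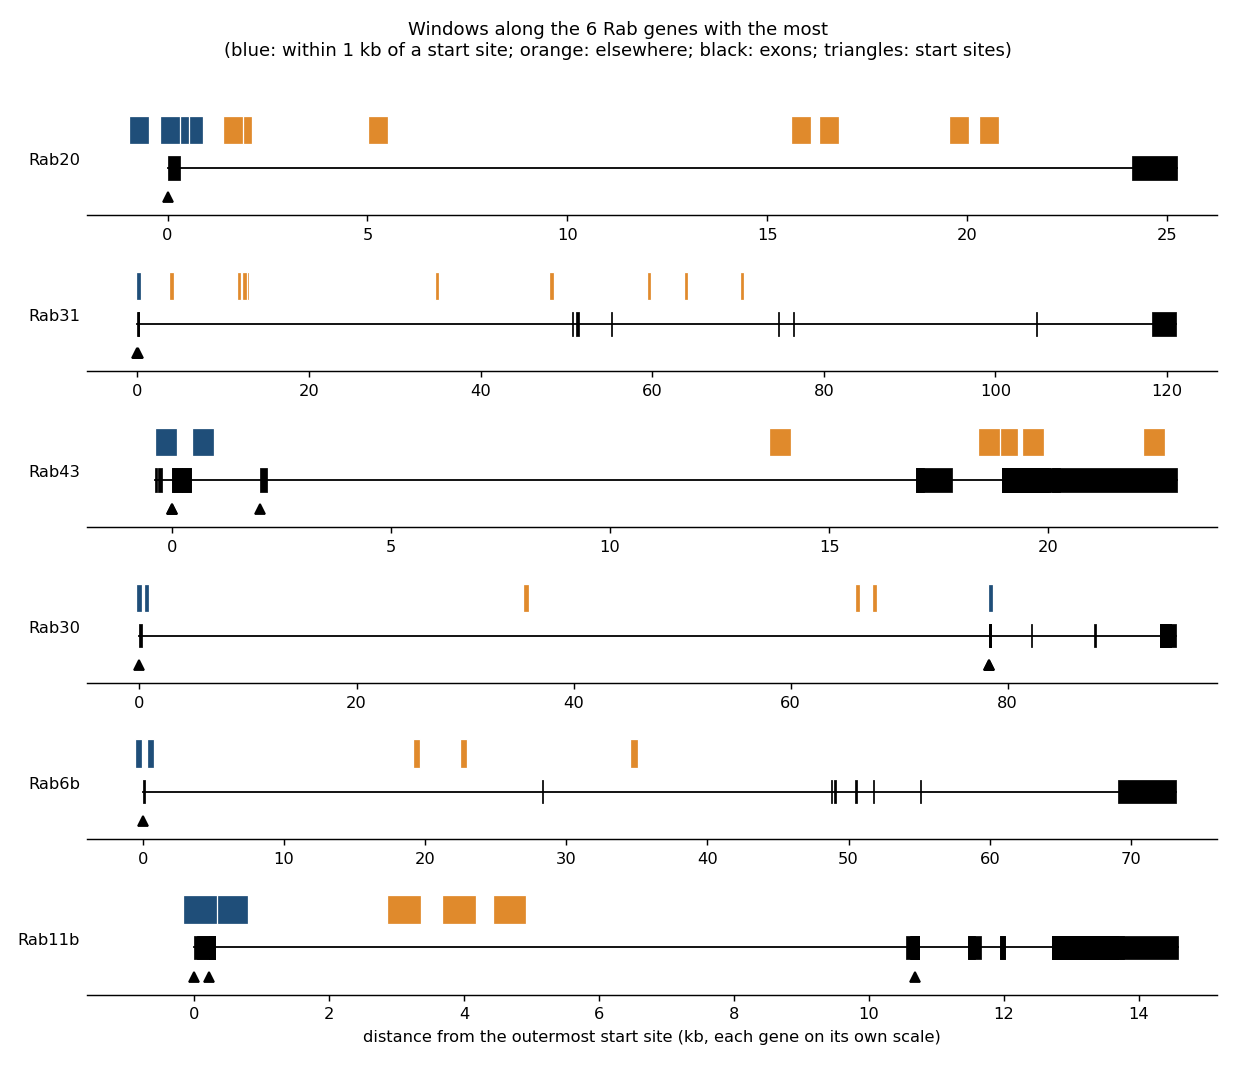
Windows (blue at start sites, orange elsewhere) along the 6 Rab genes with 5 or more windows, by distance from the outermost start site in kb, each gene on its own scale, with exons in black and start sites as triangles. Rab20, Rab31, Rab6b and Rab11b carry their orange windows in introns; 4 of the 5 of Rab43 lie in the last part of the gene, and Rab30 has a blue window at an internal start.

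Recycling and polarity genes held 24 windows in 12 genes. Rab11b, of the recycling endosome, had 2 start windows and 3 intron windows with summits 2.89, 3.7 and 4.45 kb from the nearest start. Its paralogue Rab11a had 1 window, 0.139 kb from a start. Rab13, which works at tight junctions, and Rab15, of the recycling endosome, had 3 start windows each. Of those of Rab13, 2 lay at its outermost start and 1 at an internal start, and the ribosomal protein gene Rps27 starts within 1 kb of windows of Rab13. Rab15 had no window at its outermost start, and its 3 windows lay by other annotated starts and held 5, 7 and 8 CpG. Its outermost start had a CpG ratio of 0.5, so Rab15 counts among the CpG island genes through another start.

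Rab17 had 2 start windows and 1 in an intron, and Rab25 had 1 start window and 1 intron window 5.87 kb from the start. Rab10, which delivers membrane to the basolateral side, had 2 windows. Rab8a and Rab8b of apical and ciliary delivery, Rab12, Rab14 and Rab35 had 1 start window each. Their summits lay between 3 bp (Rab12) and 75 bp (Rab8b) from a start.

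The Golgi group ranged from 7 windows to none. Rab43, which acts in transport between endoplasmic reticulum and Golgi, had 2 start windows and 5 elsewhere, and 4 of these 5 lay in the last part of its 23.3 kb span, 2 in the 3′ UTR, 1 in a coding exon and 1 in an intron. Rab30, of the Golgi, had 3 start windows and 3 in introns. Its start windows had summits 0.036 kb upstream and 0.659 kb downstream of its outermost start and 0.084 kb downstream of an internal start.

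Rab6b, a Golgi Rab known best from neurons, had 2 start windows and 3 intron windows at 19.4, 22.7 and 34.8 kb. Rab6, the widely expressed member of that pair, had 2 start windows and none elsewhere. Rab1 and Rab1b, which carry cargo from the endoplasmic reticulum to the Golgi, had 2 and 1 start windows. Rab18, of lipid droplets, and Rab19 and Rab36, of the Golgi, had 1 start window each.

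In regulated secretion, Rab27a, which docks lysosome-related and secretory granules, held 4 windows: 2 at its start, with summits 0.16 and 0.437 kb upstream, and 2 in introns at 10.8 and 44.9 kb. Rab27b and Rab26 had 1 start window and 1 intron window each. The start window of Rab27b lay at an internal start, and its outermost start had no window. The intron window of Rab26 reached the 3′ end of the gene, held 25 CpG and lay within 1 kb of the start of the noncoding gene SNORD60. Rab37, known from mast cell granules, had only 1 window, in an exon 6.16 kb from the nearest start of its coding transcripts.

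Late endosome and lysosome genes were open at the start except for Rab9b. Rab7, the main GTPase of the late endosome, had 1 start window with its summit 17 bp upstream. Rab32, of lysosome-related organelles, had 3 start windows from 1 called peak, and Rab38, its partner in pigment granules, had 1. Rab24, linked to autophagy, had 1, which Rab24 shared with the start of Prelid1. Among the remaining genes Rab28, of the photoreceptor cilium, had 3 start windows from 1 called peak and Rab34, needed to build cilia, had 2. Rab23, a brake on Hedgehog signalling, and Rab40b and Rab40c, which join ubiquitin ligases, had 1 each.

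Paralogues that share a number were compared in state. Of the 13 numbers held by more than 1 Rab gene (29 genes), 8 had a start window in every member (1, 4, 5, 6, 8, 11, 27 and 40), 3 were split (2, 3 and 9) and 2 had none in any member (33 and 39). In windows of called peaks that kept 2 or more, 8 of the 13 numbers were split. Close relatives of the same protein can be set side by side in the 3 split groups.

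The Rab3 genes, which control the release of synaptic vesicles and secretory granules, divided evenly. Rab3d, known from exocrine glands, had 3 start windows with summits 0.065 and 0.909 kb upstream and 0.313 kb downstream of its starts. Rab3a, the neuronal form, had 2, with summits 0.079 kb upstream and 0.277 kb downstream. Rab3b had no window, and its nearest summit was 31.1 kb away. Rab3c, also neuronal, had 1 window in its 3′ UTR, 0.225 Mb from its nearest start. To show the difference in base content, the 200 bases before the outermost start are printed with CpG in capitals, for Rab3d (chr9:21722637-21722836, minus strand, 16 CpG) and Rab3b (chr4:108551468-108551667, plus strand, 5 CpG).
Rab3d: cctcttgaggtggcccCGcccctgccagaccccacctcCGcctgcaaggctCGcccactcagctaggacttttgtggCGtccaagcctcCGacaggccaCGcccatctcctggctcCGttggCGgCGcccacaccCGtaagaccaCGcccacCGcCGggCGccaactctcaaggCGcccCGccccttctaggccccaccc
Rab3b: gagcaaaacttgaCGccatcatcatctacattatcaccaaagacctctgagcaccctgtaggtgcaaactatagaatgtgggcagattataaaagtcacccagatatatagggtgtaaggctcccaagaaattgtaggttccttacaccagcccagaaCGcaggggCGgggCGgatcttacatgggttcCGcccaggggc

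Both Rab9 genes, which return receptors from late endosomes to the Golgi, lie on the X chromosome. Rab9 had 2 start windows, with summits 0.047 kb upstream and 0.297 kb downstream of a start, and 1 intron window at 14.4 kb. Rab9b had none, and its nearest summit was 108105 bp away. The same stretches of Rab9 (chrX:162917800-162917999, 7 CpG) and Rab9b (chrX:133403295-133403494, 1 CpG), both on the minus strand, are printed with CpG in capitals.
Rab9: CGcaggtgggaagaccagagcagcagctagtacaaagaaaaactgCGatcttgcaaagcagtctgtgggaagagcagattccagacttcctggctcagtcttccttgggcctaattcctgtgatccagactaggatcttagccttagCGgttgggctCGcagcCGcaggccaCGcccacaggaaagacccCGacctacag
Rab9b: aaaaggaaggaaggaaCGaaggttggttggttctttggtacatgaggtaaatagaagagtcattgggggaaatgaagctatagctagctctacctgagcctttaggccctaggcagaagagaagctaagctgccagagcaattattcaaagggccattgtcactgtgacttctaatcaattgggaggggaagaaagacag
Rab9 was the only X-linked Rab gene with a start window, 1 of 4 (25%), against 39.7% of all X-linked genes. It was also the only 1 of the 4 with a CpG island start. Over all X-linked genes with such a start the share was 82.9%, and the part of CpG content was not tested. On the autosomes 45 of 52 Rab genes (86.5%) had one, against 52.8% of all autosomal genes.

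CpG content did not follow the state in every pair. Rab2a, of the endoplasmic reticulum to Golgi step, had 2 start windows, with summits 0.093 kb upstream and 0.538 kb downstream, and 1 intron window 70 kb inside the gene. Rab2b had a CpG island start and no window, and its nearest summit was 21.5 kb away. No window lay in a stretch of 47.2 kb around it, the shortest such stretch among the 7 Rab genes without any window, and 3 of the 7 other CpG island genes within 500 kb (Hnrnpc, Tox4 and Sall2, named after their values were seen) also had none at a start. Chromosome 14, which carries Rab2b, had start windows at 74.1% of its CpG island genes, at the bottom of a range that reached 91.2% over the 20 chromosomes. The part of these neighbours and of the chromosome in the state of Rab2b was not tested.

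Rab33b, which links the Golgi to autophagy, is the contrasting case of a CpG-rich start with no start window beside neighbours that had one. All 7 other CpG island genes within 500 kb of Rab33b had a start window, and its own single window lay in a coding exon 9.53 kb from the start. The 200 bases before its start (chr3:51287688-51287887, plus strand) hold 22 CpG, shown in capitals, more than the 16 of Rab3d.
Rab33b: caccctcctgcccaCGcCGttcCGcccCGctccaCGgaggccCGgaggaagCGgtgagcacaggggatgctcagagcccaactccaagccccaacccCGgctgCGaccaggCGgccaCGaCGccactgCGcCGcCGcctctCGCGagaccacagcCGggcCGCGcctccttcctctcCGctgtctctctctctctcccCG
Rab33a, its X-linked relative known from brain and immune cells, had no window and lay in a free stretch of 79.4 kb, and all 9 of its CpG island neighbours had a start window.

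The other Rab genes without a window were Rab39, Rab39b and Rab44. Rab39 lay in a stretch of 0.34 Mb free of windows, and 6 of its 9 CpG island neighbours had a start window. Rab39b, a neuronal gene, lay in a free stretch of 0.159 Mb, and all 7 of its neighbours had one. Rab44, a large Rab protein known from immune cells, lay in a free stretch of 0.173 Mb, and 12 of its 15 neighbours had one. Rab3b lay in a free stretch of 0.153 Mb, and 13 of its 15 neighbours had a start window. For Rab9b the stretch was 0.234 Mb, and 4 of 5 neighbours had one.

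Windows away from starts were unevenly spread over the family. Of the windows of Rab genes, 76 (62.8%) lay at starts, against 54.2% of the windows in or at all protein-coding genes. Of the other 45, introns held 39, 3′ UTRs 3, coding exons 2 and another exon 1. Rab genes with such a window numbered 18 (32.1%), against 24.9% of all genes. The median Rab gene spanned 23 kb, against 15.4 kb over all genes, so the counts were also taken per length. Rab genes held 2.2 windows elsewhere per 100 kb of gene, against 1.67 over all genes, but Rab31, Rab20 and Rab43 supplied 21 of the 45. Without Rab31 the rate was 1.87, without Rab31 and Rab20 it was 1.53, and without these and Rab43 it was 1.28 per 100 kb. These genes were left out because they held the most such windows. No gene was left out of the rate over all genes, so the lowered rates are not comparable with 1.67.

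Letters of 14 short motifs were counted in the 76 Rab start windows and the 18732 start windows of all genes, on both strands. The shares were higher in Rab windows for 6 motifs and lower for 8, and most were close. The CCAAT box (CCAAT) was in 53.9% of Rab start windows, against 42.3% of all, and in the central 200 bp in 31.6%, against 24.3%. The TATA box (TATAAA) was in 2.63%, against 7.98% of all. The SP/KLF box (GGGCGG) was in 71.1%, against 69.2%, the YY1 core (AAGATGGC) in 9.21%, against 5.4% (in the central 200 bp 2.63%, against 2.31%), and ETS letters (CCGGAAG) in 15.8%, against 17.3%. The CRE core TGACG, which is part of the full CRE, was in 42.1% of Rab start windows, against 37.3% of all start windows. In the central 200 bp it was in 22.4%, against 20.4%. Of the 45 Rab windows elsewhere 35.6% held it, against 20.4% of all windows elsewhere. These Rab windows elsewhere numbered 16, and Rab6b, Rab20 and Rab31 had 3 each. Rab start windows had a median of 33.5 CpG and a GC content of 63.3%, against 34 CpG and 61.6% in all start windows.

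The machinery that works on Rab proteins was open to a similar extent. Over prenylation factors, exchange factors, GTPase-activating proteins and effectors, 85.6% of genes had a start window, against 52.2% of all protein-coding genes. Of these genes, 89 had a CpG island start, and 80 of the 89 had a start window, against 82.7% of all genes of that class. Of the 29 without an island, 21 had a start window, against 17.9% of all such genes.

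Of the 5 genes counted for prenylation and GDP dissociation, 4 had a start window, among them Gdi2, which extracts Rab proteins from membranes. Chml, a Rab escort protein gene, had no window. Exchange factors had a start window in 31 of 34 genes. Rin2, an exchange factor for Rab5, held 20 windows, St5, a DENN domain protein, held 12, Dennd2d held 8 and Rabgef1, another exchange factor for Rab5, held 6. Dennd1c was the exchange factor with no window at all.

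GTPase-activating proteins of the TBC kind had a start window in 35 of 38 genes. Tbc1d1 held 19 windows and Tbc1d4 held 14, and both are known for control of glucose transporter traffic. Tbc1d8 held 9 and Tbc1d9 held 7, while Tbc1d17 and Tbc1d21 had none. Effectors had a start window in 31 of 41 genes (75.6%). Myo5b, a motor that moves recycling endosomes, held 11 windows, Appl2, a Rab5 effector, held 10, and Fyco1, which binds Rab7, and Rab11fip4, which binds Rab11, held 8 each. The effectors without any window were Mical1, Rims1, Rph3a and Sytl5, of which Rims1 and Rph3a act at synapses with Rab3.

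**Figure D5:**
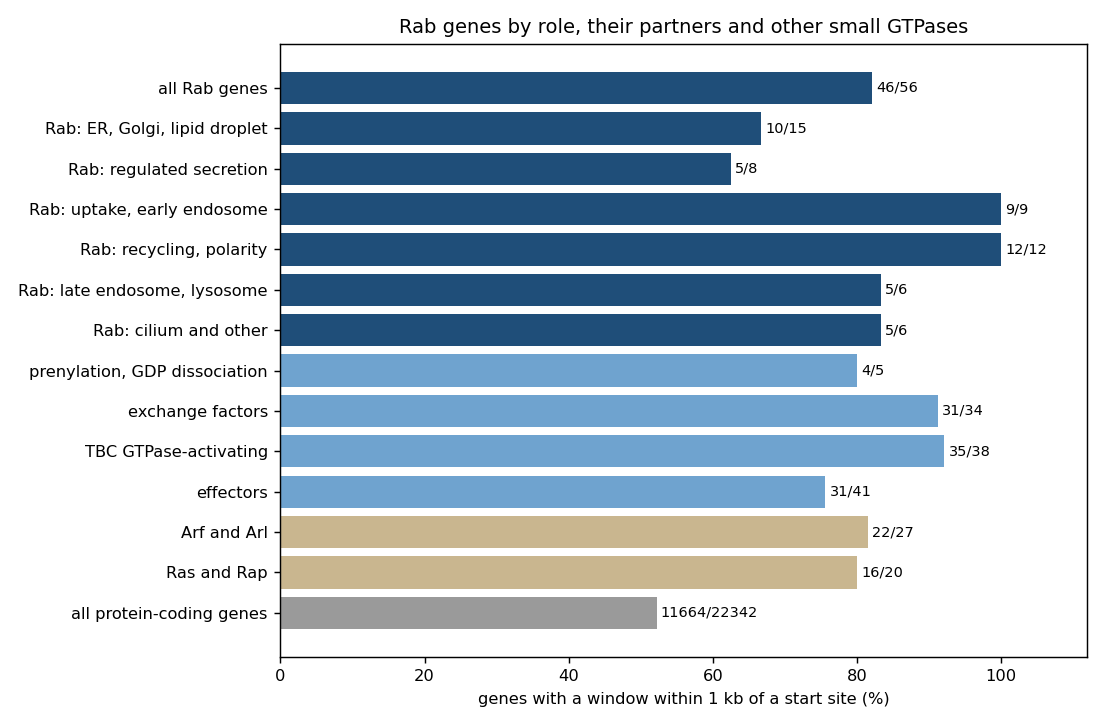
Share of genes with a start window (%, horizontal axis, with counts beside the bars) for the Rab genes and their roles (dark blue), Rab regulators and effectors (light blue), other small GTPases (tan) and all protein-coding genes (grey). Every group lies above the 52.2% of all protein-coding genes, and regulated secretion, with 5 of 8, is the lowest of the other groups. The groups differ in their number of CpG island starts, and over all genes with such a start the share, not plotted, is 82.7%.

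Other small GTPases stood beside the Rab family. Together 38 of 47 Arf, Arl, Ras and Rap genes (80.9%) had a start window, close to the 82.1% of Rab genes. The Arf and Arl genes, which shape coats and microtubule traffic, had 22 of 27 (81.5%), and the Ras and Rap genes of growth and adhesion signalling had 16 of 20 (80%). All of the open genes in these lists had a CpG island start: with an island 22 of 23 Arf and Arl genes and 16 of 18 Ras and Rap genes had a start window, and without one 0 of 4 and 0 of 2, while 7 of 13 Rab genes without an island had one. No test was run between these families and the Rab genes.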

How the data were processed

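Tumour cells were profiled by single-cell ATAC-seq, and the values used are the start and end positions of windows in 1 deposited list. Per the methods of the study, the authors mapped reads to mm9 with Bowtie2 (2.1.0), removed duplicates with Picard (1.79) and mitochondrial reads, called summits on pooled cells with MACS2, whose version is not given in the sources used here, and kept the windows with the lowest q-values. The submitters' processing notes also name hg19. The deposited list of the authors holds 50000 windows of 500 bp from 38400 called peaks, with no count or score, so depth and precision per window are unknown.

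Windows were joined here to GENCODE M1 genes on mm9 (22342 protein-coding genes with 45993 start sites of coding transcripts, chromosomes 1 to 19 and X) by any shared base, in Python 3.11.15 with numpy 2.4.6. No window ran beyond a chromosome end. Sequences were read from the mm9 genome. Figures were drawn with matplotlib 3.10.9. Overlap code was tested on simulated data. No test between groups was made, since the list is 1 sample. The members and gene lists were chosen with earlier results of these data known. Named in full were the Rab genes with the most windows, those in split paralogue groups and those without windows, and up to 4 regulators or effectors a list with the most windows and up to 4 without any. Identity between the proteins was planned but not analysed here, and some planned list members are not reported here. Windows of called peaks that kept 2 or more windows served as a stricter list, and other distances, start sites, gene extents and gene classes were tried as alternatives.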

Additional observations from a re-analysis of the deposited data

How the results depend on the processing

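The list carries no score, and the strictest alternative, windows of called peaks that kept 2 or more, moved every count it was applied to. Under it 18 Rab genes (32.1%) had a start window, against 21.6% of all genes, and 20 (35.7%) had a window in the gene or at a start, against 25.5%. It left a start window in 35 regulators and effectors (29.7%). In alternatives chosen after seeing the data, the same stricter windows left a start window in 17 of 47 other small GTPases, split 8 of the 13 paralogue numbers, and left 17 of the 39 open Rab genes with a CpG island start and 1 of the 7 without (Rab30). The count of 46 open Rab genes was the same at 500 and 2500 bp and by summit, 49 at 10000 bp (with Rab33a, Rab33b and Rab37), 44 at the outermost start alone (without Rab15 and Rab27b) and 51 of 61 under a wider symbol rule. Alternatives chosen after seeing the data gave 46 with the starts of all transcripts and 45 without windows shared with another coding start (without Rab24). Merging overlapping windows lowered the number of windows by 3.31%. No paired analysis was possible because the results come from 1 pooled list and no test. Depth limits what absence from the list means, and the size of that limit is unknown without counts.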
